A study of Mus musculus with 20 samples.

Results

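Acyl-CoA thioesterases split a fatty acid or other carboxylic acid from coenzyme A. Liver RNA for 6 of these genes (Acot1, Acot2, Acot3, Acot4, Acot12 and Acot13) was measured in male C57BL/6J mice kept for more than a year under 137Cs gamma rays, and in unirradiated controls. The genes were taken by name: every probe set of the array whose annotation gives a member as its only symbol was included, which gave 10 probe sets of the 34945 with 1 symbol, or 6 genes of 18193. Of the 10 probe sets, 8 were bright enough to be tested, with a mean no lower than that of the median probe set, and each of the 6 genes kept at least 1.

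Mice were 8 weeks old at the start and were irradiated for 22 hours per day. Experiment 1 lasted 485 days, at a low dose-rate of 0.042, a medium dose-rate of 0.858 or a high dose-rate of 16.6 mGy per day, which added up to 20.6, 416 and 8030 mGy. Experiment 2 lasted 401 days, at 0.05, 1.00 and 20.0 mGy per day, or 20, 401 and 8015 mGy in total. Each of the 6 irradiated groups had 3 mice and each mouse had an array of its own, whereas the control of each experiment was 1 array of RNA pooled from 3 mice in experiment 1 and from 6 mice in experiment 2. The pools show no spread between unirradiated mice, and the low, medium and high comparisons with control all use the same 2 pools. The labels give no mouse lineage or litter, so a p-value here reflects only how these samples scatter, which may be technical in part.

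As background, type I acyl-CoA thioesterases differ mainly in where they act. Acot1 is cytosolic, Acot2 is mitochondrial, and Acot3 and Acot4 are peroxisomal. Acot1 to Acot4 are close relatives that arose by gene duplication, and fasting and the nuclear receptor PPAR alpha raise their RNA in mouse liver. Acot12 is a cytosolic enzyme that splits acetyl-CoA, and Acot13 is a small enzyme with a hotdog fold that is associated with mitochondria. In the RefSeq gene order of GRCm38.p6 the protein-coding genes Acot2, Acot1, Acot4, Acot3 and Acot5 follow each other on chromosome 12, after Riox1, while Acot12 and Acot13 lie apart from each other on chromosome 13.

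The 250 bases upstream of the annotated start are shown for Acot1, the member with the clearest distance from the control pools, and for Acot3 and Acot4, the neighbouring pair that varied together most closely from mouse to mouse. The sequences are those of RefSeq on GRCm38.p6, written 5′ to 3′, with matches to searched motifs in capitals.
Acot1, chr12:84009252-84009501, plus strand: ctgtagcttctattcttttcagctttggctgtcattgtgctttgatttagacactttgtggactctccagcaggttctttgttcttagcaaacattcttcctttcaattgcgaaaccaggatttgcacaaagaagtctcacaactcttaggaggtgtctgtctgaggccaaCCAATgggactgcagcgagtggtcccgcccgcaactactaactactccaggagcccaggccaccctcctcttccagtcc
Acot3, chr12:84051894-84052143, plus strand: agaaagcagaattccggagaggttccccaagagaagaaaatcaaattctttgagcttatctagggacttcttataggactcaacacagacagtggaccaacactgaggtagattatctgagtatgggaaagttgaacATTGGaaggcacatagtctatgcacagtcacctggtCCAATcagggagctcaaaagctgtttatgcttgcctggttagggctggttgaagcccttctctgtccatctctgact
Acot4, chr12:84038129-84038378, plus strand: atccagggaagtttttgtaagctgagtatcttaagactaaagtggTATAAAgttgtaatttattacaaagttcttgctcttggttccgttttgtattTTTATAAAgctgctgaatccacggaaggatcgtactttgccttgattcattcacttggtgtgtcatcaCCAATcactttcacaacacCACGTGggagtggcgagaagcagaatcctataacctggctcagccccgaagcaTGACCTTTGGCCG

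Motifs were searched on both strands in these windows, which RefSeq gave for 5 of the 6 members. AGGTCA, the receptor half-site, and the direct repeat of that half-site with a 1-base spacer (DR1, at most 2 mismatches over its 12 half-site bases), the pattern that PPAR alpha binds with its partner, were matched in Acot4, beginning 13 bases before the start, and in Acot12, beginning 110 bases before it. In both promoters the AGGTCA match lies inside the DR1 match. The windows of Acot1, Acot2 and Acot3 held neither. Of 32851 RefSeq promoter windows of the same length, 14.0% held AGGTCA and 3.24% held a DR1 match. CCAAT was matched in Acot1, Acot2, Acot3 and Acot4 and in 33.8% of all windows. Acot4 alone among the 5 held the E-box CACGTG, found in 6.02% of all windows, and TATAAA, found in 12.4%; 2 of its 3 TATAAA matches overlap on opposite strands. RefSeq gives Acot3 a start 7 bases further on as well, and the motif matches in that window are the same. These matches describe letters only.

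Acot1 showed the largest distance from control relative to its spread. Its MAS5 signal, the array's scaled brightness for a probe set, was 3092.2 in the pool of experiment 1. In the mice of that experiment it was 1661.3, 1491.9 and 1215.4 at the low dose-rate, 1997.2, 2114.5 and 848.0 at the medium and 1738.6, 1324.9 and 1342.4 at the high dose-rate. Every mouse lay below the pool, and the 3 dose levels overlapped each other.

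In experiment 2 the Acot1 signal was 2953.1 in the pool. The mice had 1962.0, 1447.1 and 2202.1 at the low dose-rate, 1470.2, 1493.7 and 1612.8 at the medium and 1410.5, 2058.7 and 1548.9 at the high dose-rate. Again every mouse lay below the pool of its experiment, without overlap, and the levels overlapped each other. Over both experiments the irradiated mice had a mean of 1608 ± 352 (SD, n = 18). Acot1 was 1 of 106 genes among 11216 (0.945%) with all 18 mice below their own pool, and 98 genes (0.874%) had all 18 above it.

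**Figure D1:**
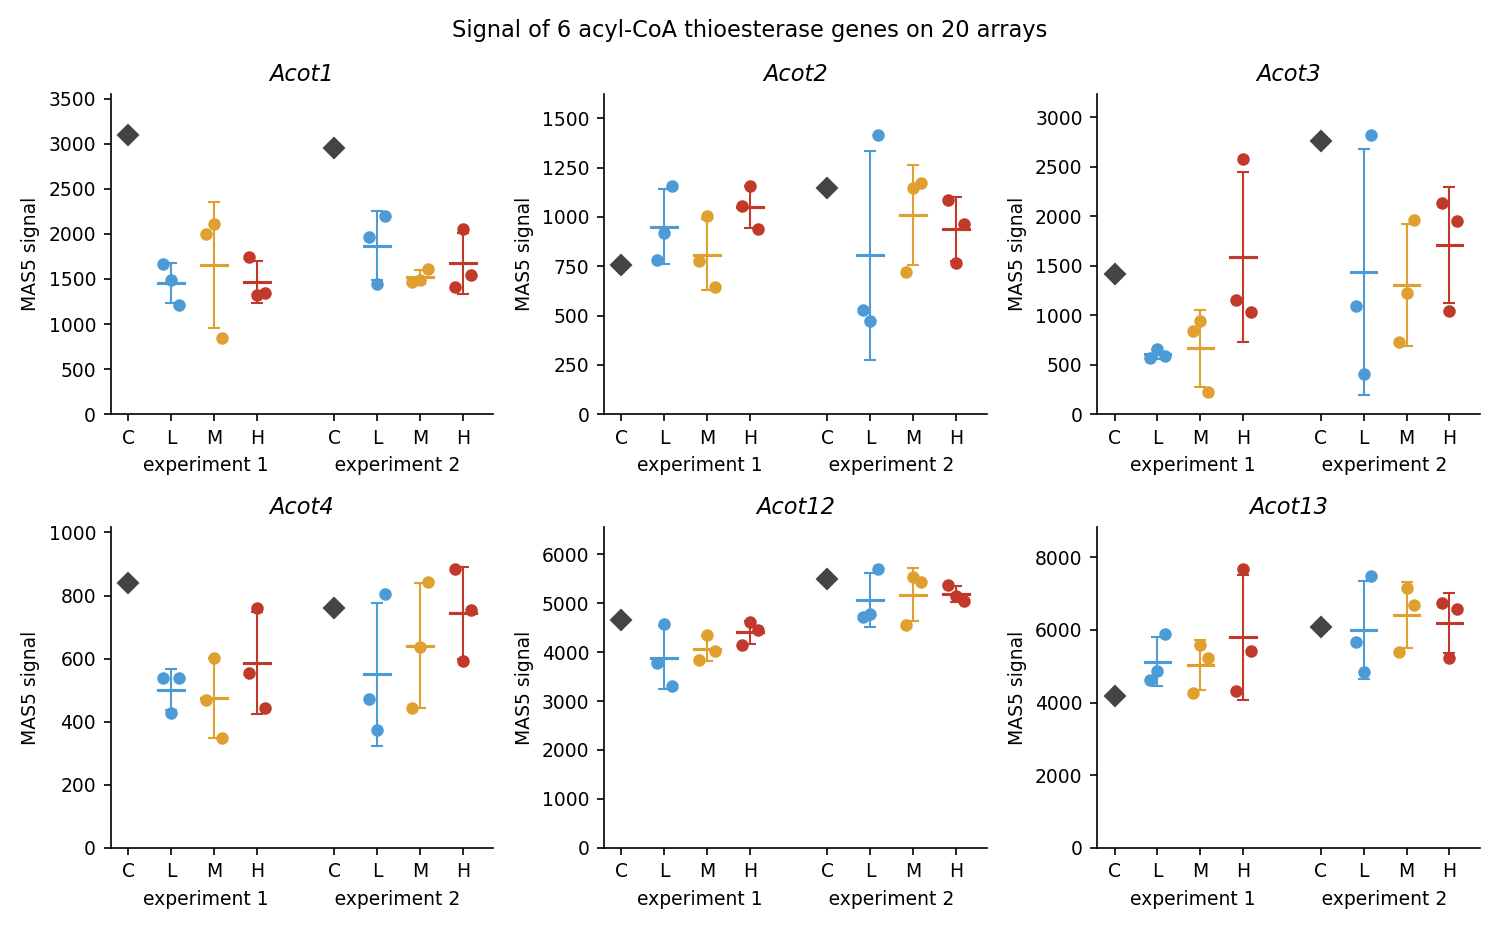
MAS5 signal (y axis, linear from 0) of each gene's tested probe set on every array, by group (x axis; C control pool, L low, M medium, H high dose-rate). Diamonds are pools, points are mice, and lines with bars are group means ± SD (n = 3); for Acot1 all 18 mice lie below the pools at 3092.2 and 2953.1, while Acot3 mice spread from 225.1 to 2819.6.

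On the log2(signal + 7.12) scale (7.12, the 10th percentile of signals, was added to steady low values), Acot1 was lower than control by about the same amount at every dose level. In limma the difference was -0.89 ± 0.25 (SE) at the low, -0.98 ± 0.25 at the medium and -0.96 ± 0.25 at the high dose-rate. With Benjamini-Hochberg adjustment over all 11216 genes, the limma adjusted p was 0.725, 0.297 and 0.240, so no level passed the threshold of 0.05. For all irradiated mice together limma gave -0.94 ± 0.22, with a 95% interval of -1.41 to -0.48, an unadjusted p of 0.000401 and an adjusted p of 0.227. The difference is thus larger than the SD between mice within groups (0.37 on the log2 scale), while the signals of the 18 mice spanned 2.6-fold. It ranks 19th of 11216 by p and did not pass the correction over all genes. Counting each pool with the weight of its 3 or 6 mice, Acot1 passed at every level (limma adjusted p = 0.0201, 0.00411 and 0.00347 from low to high), as it did at the high dose-rate when only those mice and the pools were fitted (adjusted p = 0.0499). These settings called more genes overall: the weights called 56, 260 and 360 genes from low to high, and the smaller fit called 15.

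None of the 6 members passed against control. The same limma test called 6 of 11216 genes (0.0535%) at the high dose-rate, 3 (0.0267%) at the medium, 1 (0.00892%) at the low and 5 (0.0446%) for irradiated mice together. Fitted over all 22519 probe sets, irradiated against control called 10 (0.0444%), and 0 of the 8 members' probe sets were among them.

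The Acot1 difference was present in each experiment, at -1.06 ± 0.33 in experiment 1 and -0.82 ± 0.33 in experiment 2. The difference between the experiments was 0.24 ± 0.47 (limma adjusted p = 1.00). That comparison of experiments called 2 genes (0.0178%), and no member. Each experiment's value rests on its own single pool: leaving out the pool of experiment 2 gives -1.06 and leaving out that of experiment 1 gives -0.82.

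Between dose levels Acot1 differed little. High against low was -0.07 ± 0.17, with a 95% interval of -0.43 to 0.29, high against medium was 0.02 ± 0.17, and medium against low was -0.09 ± 0.17. Differences of more than 0.43 lower or 0.29 higher at the high than at the low dose-rate lie outside the interval.

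A probe set annotated to both Acot1 and Acot2 gave nearly the values of the Acot1 probe set; it falls outside the rule for members and was picked out after its values were seen. Its signal was 3294.7 and 2792.6 in the pools and 806.9 to 2184.6 in the mice, all of which lay below the pools. Its difference in irradiated mice was -0.92 ± 0.22 (limma adjusted p = 0.225 over all probe sets), and across the 18 mice, as deviations from group means, it correlated with the Acot1 probe set at r = 0.872 and with the Acot2 probe set at r = 0.584. Since the genes are near-identical copies in part, hybridization of the transcripts of one to the probes of another cannot be separated here.

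Some other measures stood apart from the mice in both pools, as Acot1 did. The summed signal of 17 circadian clock genes was 20026 in the pool of experiment 1 against 15284 to 18308 in its mice, and 23765 against 18282 to 20462 in experiment 2. The sum of 5 B cell markers was below all mice in both pools, at 1641 against 1868 to 6839 and 2236 against 2330 to 6173. The 3′ to 5′ ratio of the Gapdh control probe sets, a sign of RNA integrity, stood apart in the pool of experiment 1 only. It was 0.69 in the pool and 0.701 to 0.769 in the mice of experiment 1. In experiment 2 it was 0.916 in the pool, within the 0.871 to 0.993 of the mice. The part of these in the Acot1 difference was not tested.

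The summed signal of 12 hepatocyte markers lay within the range of the mice in both pools, at 465669 against 449059 to 581847 and 521914 against 486175 to 575393. The pools lay within the range of the mice for the sums of 12 Kupffer cell and macrophage, 10 endothelial, 10 stellate cell and fibroblast, 3 cholangiocyte, 2 adipocyte, 4 pancreatic acinar and 1 T and NK cell markers as well. Gene by gene, 11 of the 12 hepatocyte markers (median 0.09), 9 of the 10 stellate cell and fibroblast markers (median 0.22), 8 of the 12 Kupffer cell and macrophage markers (median 0.08) and 5 of the 5 B cell markers (median 0.73) were above control in irradiated mice, beside 4 of the 10 endothelial markers (median -0.09). None of these markers passed in limma, and their part in the Acot1 difference was not tested. In a piece of liver, fewer cells of a type and less RNA per cell cannot be told apart.

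Acot2, the mitochondrial relative next to Acot1 on the chromosome, did not share its distance from control. Its signal in experiment 1 was 758.6 in the pool, 781.8, 918.1 and 1154.4 at the low, 775.7, 1005.8 and 646.9 at the medium and 1057.3, 1155.0 and 938.1 at the high dose-rate. In experiment 2 it was 1147.4 in the pool, 526.1, 474.6 and 1413.2 at the low, 718.8, 1144.4 and 1169.5 at the medium and 1087.3, 767.3 and 961.8 at the high dose-rate. Of the 18 mice, 8 lay below and 10 above their pool. The irradiated mice differed from control by -0.06 ± 0.29 (limma, 95% interval -0.66 to 0.53).

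A dimmer Acot2 probe set had a mean signal of 78.5, was above the array's median on 7 of 20 arrays and was left out of the tests. In experiment 1 it read 32.6 in the pool and 49.4 to 131.8 in the mice, all above the pool. In experiment 2 it read 48.2 in the pool and 28.0 to 139.3 in the mice, with only the mouse at 28.0 below the pool.

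Acot3, a peroxisomal thioesterase for longer acyl chains, was the most variable member. In experiment 1 its signal was 1420.3 in the pool, 567.0, 660.0 and 590.3 at the low, 837.6, 946.2 and 225.1 at the medium and 1151.4, 2579.7 and 1038.8 at the high dose-rate. The 3 high dose-rate mice of that experiment lay above all 6 of the other mice. The share of all genes with such a separation was not counted.

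In experiment 2 the Acot3 signal was 2762.5 in the pool, 1091.1, 408.5 and 2819.6 at the low, 735.2, 1223.5 and 1963.2 at the medium and 2134.3, 1045.7 and 1953.4 at the high dose-rate. Here the levels overlapped, and the low dose-rate held both the lowest and the highest mouse of the experiment. Over all 18 mice the signal spanned 12.5-fold, and the SD within groups was 0.87 on the log2 scale. It was 0.44 for Acot2, 0.40 for Acot4, 0.37 for Acot1, 0.27 for Acot13 and 0.14 for Acot12.

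Of the 18 mice, 16 had less Acot3 signal than their pool. All mice of an experiment share 1 pool, and the share of all genes with such a count was not taken. The difference from control was -1.28 ± 0.56 at the low, -1.25 ± 0.56 at the medium and -0.36 ± 0.56 at the high dose-rate, and none passed in limma (adjusted p = 1.00, 0.795 and 0.917). Irradiated mice together differed by -0.97 ± 0.51, about the size seen for Acot1, with a larger error. The probe set's name ends in _s_at, which marks probes that can match more than 1 transcript, so its signal may include close relatives.

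Acot3 also had the largest difference between dose levels among the members. High against low was 0.93 ± 0.39, with a 95% interval of 0.11 to 1.74, an unadjusted limma p of 0.0287 and an adjusted p of 0.430. High against medium was 0.89 ± 0.39 (limma adjusted p = 0.999), and medium against low was 0.03 ± 0.39. High against low was 1.26 ± 0.58 in experiment 1 and 0.59 ± 0.58 in experiment 2, and the change between experiments was -0.67 ± 0.82. Without the low dose-rate mouse of experiment 2 that read 2819.6 the pooled difference became 1.23 (limma adjusted p = 0.166), and without the one that read 408.5 it became 0.64 (adjusted p = 0.703).

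No gene passed between dose levels. In limma, high against low, high against medium and medium against low each called 0 of 11216 genes (0%), with 1127, 431 and 889 genes at an unadjusted p under 0.05, and 0 members. The difference between experiments of high against low called 0 genes as well (0%), with 777 at an unadjusted p under 0.05.

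Acot4, a peroxisomal thioesterase that in mouse splits succinyl-CoA and related esters, read 838.4 in the pool of experiment 1. The mice of that experiment read 538.4, 427.2 and 538.5 at the low, 469.6, 603.0 and 349.4 at the medium and 553.1, 762.0 and 444.0 at the high dose-rate, all below the pool. In experiment 2 it read 760.8 in the pool, 470.7, 374.4 and 804.6 at the low, 444.2, 636.9 and 841.8 at the medium and 884.6, 593.4 and 753.4 at the high dose-rate, with 3 mice above the pool. The share of all genes with every mouse of experiment 1 below its single pool was not counted.

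The Acot4 difference in irradiated mice was -0.50 ± 0.25 (limma adjusted p = 0.956), from -0.64 ± 0.27 at the low to -0.57 ± 0.27 at the medium and -0.30 ± 0.27 at the high dose-rate. A second Acot4 probe set, at 435.0 and 401.8 in the pools and 146.9 to 506.4 in the mice, gave -0.65 ± 0.29 (limma adjusted p = 0.815 over all probe sets). High against low was 0.34 ± 0.19 and 0.16 ± 0.23 for the pair of probe sets.

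Acot12, the acetyl-CoA thioesterase, varied least. In experiment 1 its signal was 4652.8 in the pool, 3775.6, 4574.0 and 3314.0 at the low, 3830.9, 4356.0 and 4030.4 at the medium and 4145.0, 4621.9 and 4443.3 at the high dose-rate. In experiment 2 it was 5501.8 in the pool, 4711.2, 4782.6 and 5700.1 at the low, 4544.4, 5540.3 and 5440.7 at the medium and 5368.1, 5145.7 and 5035.1 at the high dose-rate.

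Although 16 of 18 mice lay below their pool for Acot12, a count whose share among all genes was not taken, the difference was small. It was -0.14 ± 0.10 in irradiated mice (limma adjusted p = 0.959, 95% interval -0.35 to 0.07). A second probe set gave -0.13 ± 0.12. High against low was 0.11 ± 0.08 for the first and 0.23 ± 0.09 for the second. The unadjusted limma p of the second was 0.0212, with an adjusted p of 0.385 over all probe sets. The third Acot12 probe set, with a mean signal of 12.3, was above the array median on 0 of 20 arrays and was left out of the tests.

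Acot13 had 14 of 18 mice above their pool, the highest count among the probe sets used for the 6 genes, followed by Acot2 with 10. In experiment 1 it read 4186.7 in the pool, 4624.2, 4875.8 and 5881.4 at the low, 4256.6, 5591.8 and 5216.7 at the medium and 4308.4, 7679.6 and 5404.6 at the high dose-rate, all above the pool. In experiment 2 it read 6081.8 in the pool, 5656.7, 4836.6 and 7492.3 at the low, 5384.7, 7157.2 and 6689.7 at the medium and 6733.1, 5225.7 and 6581.7 at the high dose-rate, on either side of the pool. Irradiated mice together differed from control by 0.17 ± 0.17 in limma (adjusted p = 0.959). The shares of all genes with 14 of 18 mice above their pool, or with every mouse of experiment 1 above its single pool, were not counted.

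**Figure D2:**
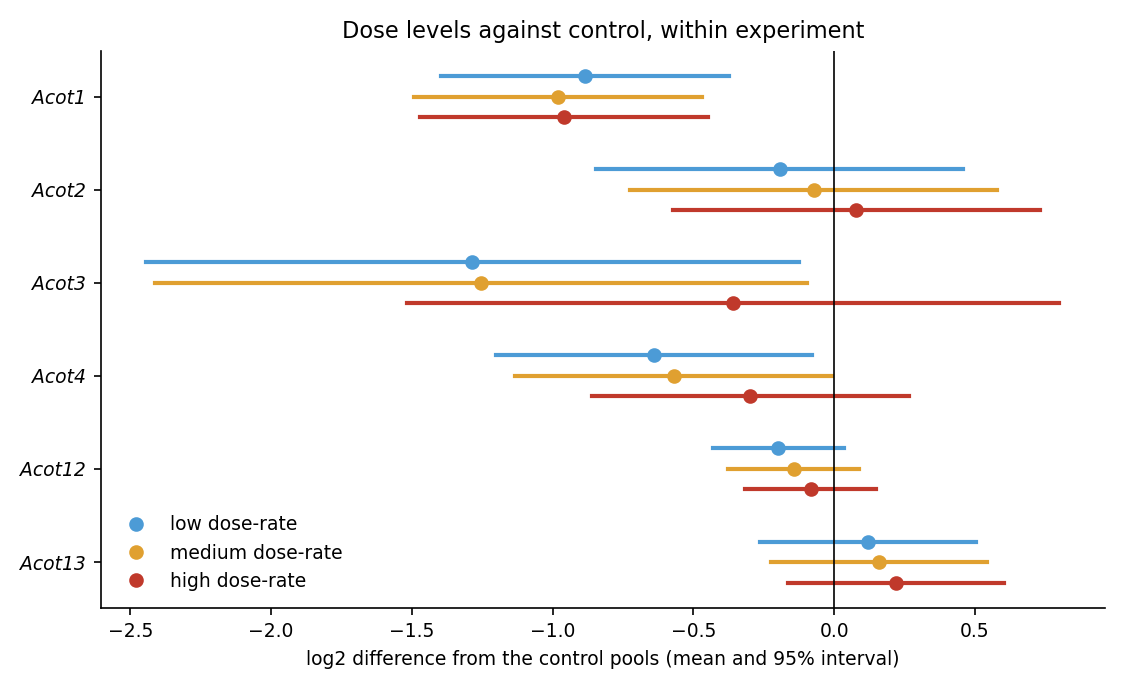
Difference from the control pools on the log2 scale (x axis) for each gene (y axis) and dose level, from the limma fit with experiment as a covariate; points are estimates and lines their 95% intervals. The Acot1 intervals lie below 0 at all 3 levels, as do those of Acot3 and Acot4 at the low and medium dose-rate, but none passed after adjustment over all genes.

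By size, the differences in irradiated mice ran from Acot3 (-0.97) and Acot1 (-0.94) over Acot4 (-0.50), Acot12 (-0.14) and Acot2 (-0.06) to Acot13 (0.17). The 95% intervals of Acot3 and Acot4 reach above 0, at 0.09 and 0.01. Among the probe sets used for the 6 genes, that of Acot1 alone thus excludes 0. The interval of the second Acot4 probe set, -1.26 to -0.04, excludes 0 too, without passing (limma adjusted p = 0.815 over all probe sets).

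The experiments differed for Acot12 and Acot13. Acot12 was higher in experiment 2 by 0.31 ± 0.06 (limma adjusted p = 0.000284), with 5141 ± 402 in its irradiated mice (SD, n = 9) against 4121 ± 430 in those of experiment 1. The second Acot12 probe set did not show this difference, at 0.07 ± 0.07 (limma adjusted p = 0.498 over all probe sets). Acot13 was higher in experiment 2 by 0.26 ± 0.10 (limma adjusted p = 0.0440), with 6195 ± 937 against 5315 ± 1049 in the irradiated mice (SD, n = 9 each). Its call was lost when any of 13 of the 20 arrays was left out.

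Of the other members, Acot3 differed by 0.72 ± 0.31 without passing (limma adjusted p = 0.0626), and passed with arrays centred on their median (0.79, adjusted p = 0.0287) or with weighted pools (0.78, adjusted p = 0.0225). Acot4 differed by 0.24 ± 0.15. Acot1 differed by 0.15 ± 0.13 and Acot2 by -0.02 ± 0.17, and none of these 3 passed. Between experiments 42.4% of all genes passed, which is the background for 2 of 6 members. Duration, age at death and the dose-rates all differ with the experiment, and the hybridization of the arrays may differ with it too. These cannot be told apart. The Gapdh 3′ to 5′ ratio of the mice also separated the experiments without overlap (0.701 to 0.769 against 0.871 to 0.993), and its part in these differences was not tested.

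From mouse to mouse over both experiments, 4 of the members moved together and Acot1 moved with them less closely. Deviations of the 18 irradiated mice from their group means were correlated over all 15 pairs of members, with 100000 permutations, and 7 pairs had a Benjamini-Hochberg adjusted p under 0.05 for Pearson's r. The highest was Acot3 with Acot4, at r = 0.909 (adjusted permutation p = 0.00015) and Spearman's rho = 0.868 (adjusted p = 0.00015), with r = 0.869 without the 2 mice farthest from the median of Acot3. It was 0.831 within experiment 1 and 0.957 within experiment 2. The Acot3 probe set may include signal of close relatives, and the part of this in its correlations with other members was not tested. The raw permutation p of 1e-05 is the smallest that these permutations can give, and the permutations do not allow for the 6 group means removed, which makes the p-values somewhat too small. The share of all gene pairs that would pass was not computed, so the 7 pairs cannot be read as particular to these genes.

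Acot2, whose mean did not differ from control, followed the peroxisomal pair. It had r = 0.854 and rho = 0.880 with Acot4 (adjusted permutation p = 0.00015 for each), and r = 0.813 and rho = 0.789 with Acot3 (adjusted permutation p = 0.0002 and 0.0008). Without the 2 farthest mice these were r = 0.794 and 0.686. Within experiments r was 0.706 and 0.930 with Acot4 and 0.671 and 0.903 with Acot3.

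Acot13 followed the same 3 genes less closely in experiment 1 than in experiment 2, a difference that was not tested. Its r was 0.701 with Acot2 (rho = 0.754; adjusted permutation p = 0.00371 and 0.00186), 0.695 with Acot4 (rho = 0.744; adjusted permutation p = 0.00414 and 0.00186) and 0.622 with Acot3 (rho = 0.682; adjusted permutation p = 0.0147 and 0.0056). Without the 2 farthest mice r was 0.599, 0.599 and 0.469. Within experiment 1 r was 0.469, 0.474 and 0.322, and within experiment 2 it was 0.928, 0.916 and 0.922.

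Acot1 had r = 0.552 with Acot3 (adjusted permutation p = 0.0347), but rho = 0.385 (adjusted permutation p = 0.157). It rests on a few mice: without the 2 farthest mice r was 0.308. Within experiments it was 0.705 and 0.437, and r of Acot1 with Acot4 was 0.517 and 0.313. In experiment 1 both values were above those of Acot13 with Acot3 and Acot4 (0.322 and 0.474). Acot1 with Acot4 gave r = 0.391, with Acot2 0.294, with Acot12 0.183 and with Acot13 -0.181 (adjusted permutation p = 0.135, 0.264, 0.477 and 0.477). The 4 pairs of Acot12 with Acot2, Acot3, Acot4 and Acot13 had r from 0.426 to 0.505 and adjusted permutation p from 0.0600 to 0.107. In that order, their r was -0.075, 0.23, -0.041 and 0.162 within experiment 1. Within experiment 2 it was 0.898, 0.741, 0.856 and 0.822, a difference that was not tested.

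**Figure D3:**
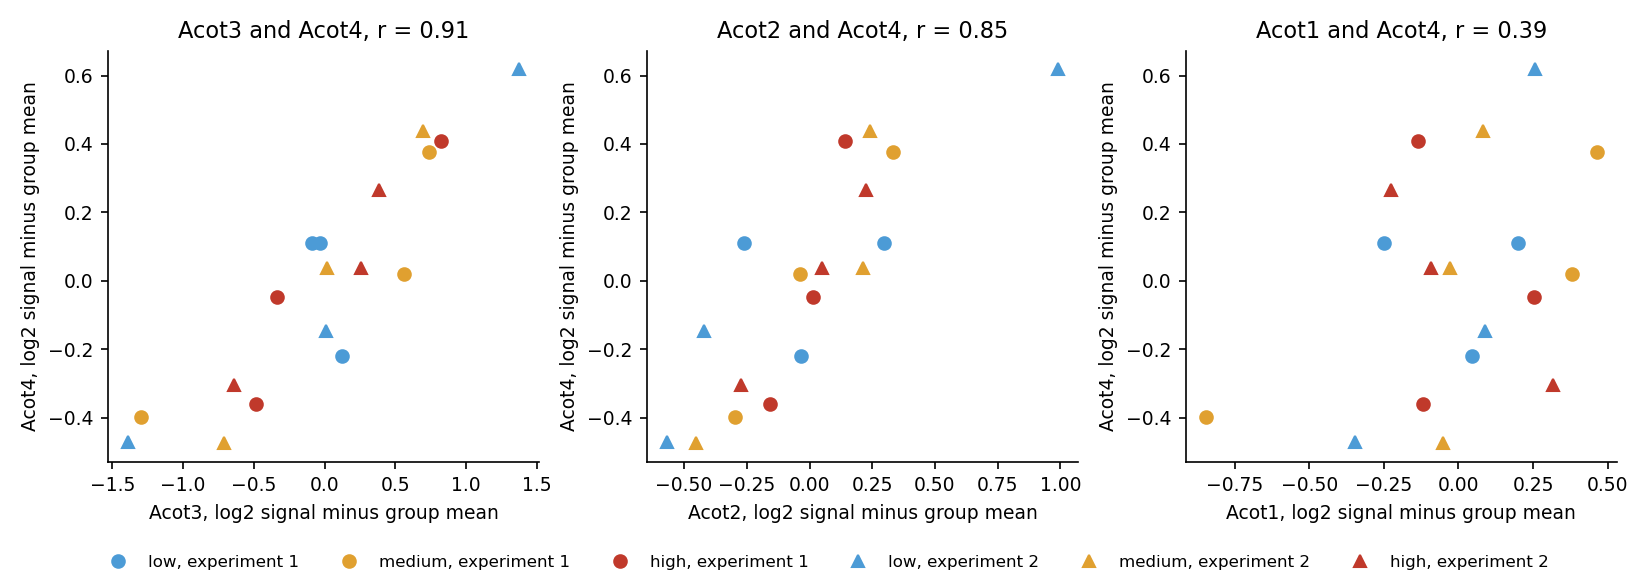
Each point is 1 of the 18 irradiated mice, as log2 signal minus the mean of its group, with colour for dose level and shape for experiment; both axes are in log2 units. Acot3 and Acot2 rise with Acot4 (r = 0.909 and 0.854), while Acot1 and Acot4 scatter more widely (r = 0.391).

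The genes most like each member were taken by Pearson's r over the 20 arrays after centring each experiment, among the 11216 genes tested, as a description. The points share arrays, and the pools are among them. For Acot1 they were Tmem41a (0.788), 2410002F23Rik (0.759), Zfp219 (0.747), Ssh3 (0.745) and Slc22a5 (0.739), the carnitine transporter, which was lower in irradiated mice by 0.87 ± 0.22 on the log2 scale without passing (limma adjusted p = 0.284). For Acot3 they were Cyp4a14 (0.889), a fatty acid omega-hydroxylase, and Acot4 (0.866).

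For Acot2 they were Nrg4 (0.903), a secreted growth factor, and Cyp2b9 (0.897), a cytochrome P450. Acot4 was most like Acot3 and then Nt5e (0.832), Acot12 most like Gstt2 (0.840) and Klb (0.754), the FGF21 co-receptor, and Acot13 most like Ebpl (0.884) and Cisd1 (0.880), a protein of the outer mitochondrial membrane.

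Other genes of acyl-CoA metabolism were described by list. In irradiated mice against control, 49.4% of all genes tested were lower, with a median of 0.00. Of 10 other thioesterases tested, 4 were lower, with a median of 0.04 and 0 passing. Acot6 was at 0.63 ± 0.30, Fasn, the fatty acid synthase with its own thioesterase domain, at 0.31 ± 0.33, and Acot7 at -0.14 ± 0.15.

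Of 21 peroxisomal beta-oxidation genes 13 were lower, with a median of -0.01 and 0 passing: Decr2 was at -0.27 ± 0.16, Acox3 at -0.49 ± 0.35 and Pex11a, a factor of peroxisome division, at -0.25 ± 0.18. Of 23 mitochondrial genes 12 were lower (median -0.01, 0 passing), with Slc22a5 at -0.87 ± 0.22, Hsdl2 at -0.33 ± 0.10 and Cpt1a, the carnitine palmitoyltransferase that admits long chains to mitochondria, at -0.34 ± 0.13. Of 17 acyl-CoA synthetases and acyl-CoA binding proteins 8 were lower (median 0.01, 0 passing), with Slc27a4 at -0.36 ± 0.18, Acsm1 at -0.17 ± 0.11 and Slc27a2 at -0.12 ± 0.08.

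Genes nearer to PPAR alpha and the fasting response were listed separately. Of 9 omega-oxidation genes 7 were lower (median -0.12, 0 passing), with Cyp4a31 at -0.36 ± 0.24, Cyp4a14 at -0.29 ± 0.26 and Cyp4v3 at -0.14 ± 0.13. Of 28 genes of PPAR alpha, its partners and other fasting targets 21 were lower, with a median of -0.25, and 1 passed: Lpin2, a phosphatidate phosphatase, fell by 0.68 ± 0.12 (limma adjusted p = 0.0396). Angptl4, an inhibitor of lipoprotein lipase, was at -1.15 ± 0.27 (limma adjusted p = 0.224) and Lpin1, another such phosphatase, at -1.06 ± 0.27 (adjusted p = 0.263). At the high dose-rate Angptl4 fell by 1.61 ± 0.30 (limma adjusted p = 0.0378) and Lpin2 by 0.76 ± 0.13 (adjusted p = 0.0295).

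Of 13 genes of coenzyme A synthesis and breakdown 9 were lower (median -0.07, 0 passing), with Vnn3 at 0.29 ± 0.18, Ppcs at 0.16 ± 0.12 and Coasy at -0.09 ± 0.09. Of the 17 clock genes, whose sum stood apart in the pools, 14 were lower (median -0.32, 0 passing), with Tef at -0.48 ± 0.11, Usp2 at -1.48 ± 0.33 and Dbp at -1.42 ± 0.33 (limma adjusted p = 0.191, 0.208 and 0.209).

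**Figure D4:**
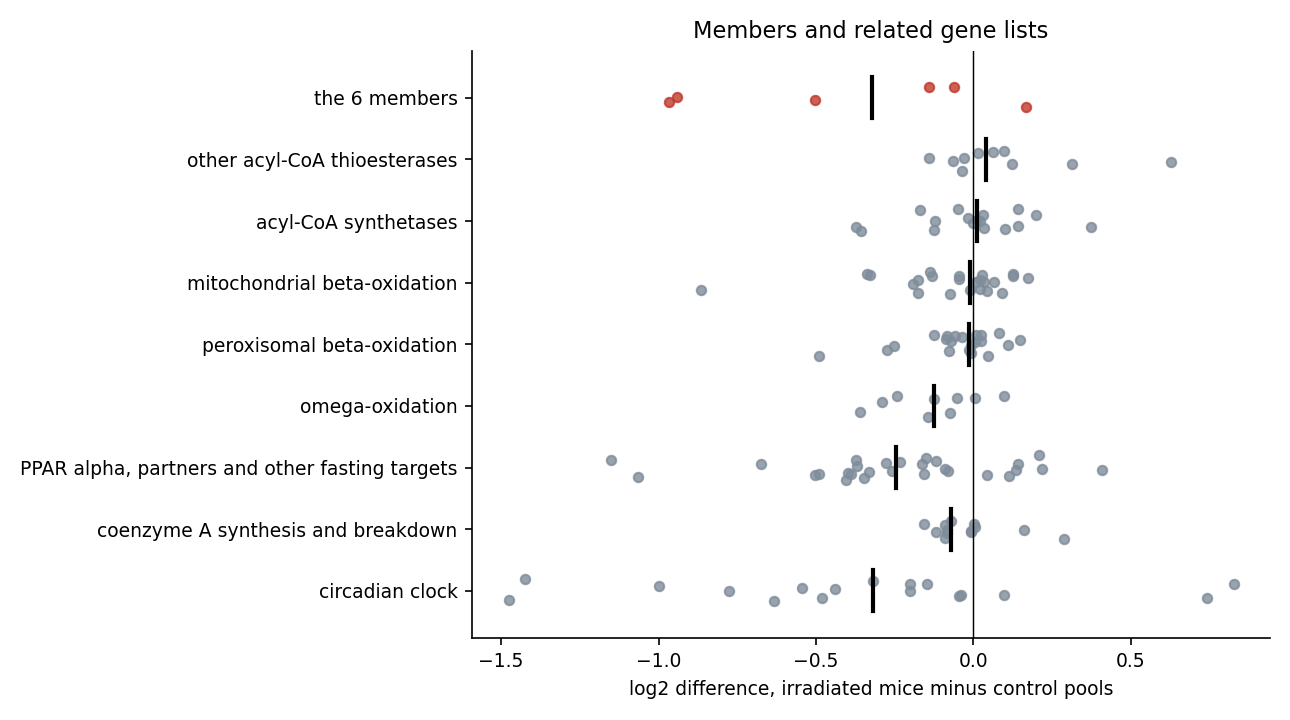
Difference of irradiated mice from control on the log2 scale (x axis) for each tested gene of each list (points, shifted vertically so they can be seen), with the list's median as a black bar. The 6 members span -0.97 (Acot3) to 0.17 (Acot13), and single genes of other lists reach similar sizes, such as Slc22a5 at -0.87 and Angptl4 at -1.15.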

How the data were processed

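Liver RNA was hybridized to 20 Affymetrix arrays with 45101 probe sets, and the deposited values are MAS5 signal intensity, per the submitters' processing notes; the version of MAS5 was not given in the sources used. On every array the deposited intensity had a 2%-trimmed mean of 500, and array medians were 81.3 to 104.8. The number of arrays limits precision. No array duplicated another (highest r 0.943). Gene symbols came from the platform annotation: 34945 probe sets had 1 symbol, 932 several and 9160 none, and 64 array controls were left out.

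Signals were put on the log2(signal + 7.12) scale, which understates changes of low genes. Probe sets with a mean log2 value at or above the median were kept (22519), and for 11216 genes the brightest was used, taken among those without the _s_at or _x_at ending where there were any. The scale of that mean was settled after seeing the data; unlogged means are among the alternatives. limma 3.58.1 in R 4.3.3 was used with a variance trend, terms for dose level and experiment (15 residual degrees of freedom) and, for values within experiments and their difference, a mean for each of the 8 groups (12 residual degrees of freedom). The limma test is two-sided, with Benjamini-Hochberg adjustment over all genes and a threshold of 0.05; errors of differences are standard errors. The fit was checked on simulated data.

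Members were named with all their probe sets, and of each gene list the 3 genes with the smallest p for irradiated against control plus any that passed against control or between levels, and the most correlated genes of each member; of the cell type marker lists only counts and sums are given. Members and lists were chosen with earlier results of these data known. Replicate numbers were not used to pair mice in the main fits. Deviations of same-numbered mice correlated at -0.152 to 0.300 in 18 pairs, 8 of them above 0.1. These values alone do not settle whether the numbers pair mice.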

Additional observations from a re-analysis of the deposited data

Results flagged for a closer look

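Acot2 at the high dose-rate lay on opposite sides of control in the experiments. All 3 high dose-rate mice of experiment 1 were above their pool (938.1 to 1155.0 against 758.6) and all 3 of experiment 2 were below theirs (767.3 to 1087.3 against 1147.4). The difference was 0.46 ± 0.43 in experiment 1 and -0.30 ± 0.43 in experiment 2, and the change from experiment 1 to experiment 2 was -0.76 ± 0.61 with a 95% interval of -2.04 to 0.52, which did not pass in limma (adjusted p = 0.999). The signals of the high dose-rate mice themselves overlapped between the experiments, while the pools read 758.6 and 1147.4. The share of all genes on opposite sides in this way was not counted.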

How the results depend on the processing

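Acot1 stayed lower than control at every dose level under the 12 alternative settings that give that comparison and the removal of each of the 20 arrays. Irradiated against control ranged from -1.04 to -0.91 over 11 settings and from -1.06 to -0.82 over the removals (limma adjusted p from 0.101 to 1.00 over the removals). Weights equal to the mice in each pool called 1 member at the high dose-rate (360 genes in all), 1 at the medium (260), 1 at the low (56), 2 for irradiated mice together (665) and 3 of the probe sets (1493). The genes were Acot1 throughout (adjusted p = 0.000284 for irradiated mice) and, for irradiated mice, Acot3 (adjusted p = 0.0422); over probe sets the second Acot4 probe set was called too (adjusted p = 0.0272). This setting assumes that a pool varies less in proportion to its mice. Fitting only the levels compared called 1 member at the high dose-rate, Acot1 (adjusted p = 0.0499, 15 genes in all). Between experiments 1 member was called without the filter and 1 without the variance trend, where the Acot13 adjusted p was 0.0574 and 0.0699, and removals of 1 array gave 1 to 3. Acot3 was called between experiments with median-centred arrays (adjusted p = 0.0287), with weighted pools (0.0225) and in 3 of the removals. Unlogged means for the filter, chosen after seeing the data, changed no call of a member.

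Values near 0 changed sign. Centring arrays on their median, which moves the median of all genes for irradiated mice to -0.09, gave Acot2 -0.021 at the high dose-rate and 0.050 between experiments, and weighted pools gave 0.12 between experiments. Over the removals Acot2 ranged from -0.26 to 0.42 at the high, -0.41 to 0.27 at the medium and -0.53 to 0.15 at the low dose-rate, from -0.40 to 0.28 for irradiated mice and from -0.12 to 0.076 between experiments. Acot13 ranged from -0.035 to 0.27 at the low dose-rate and from -0.0082 to 0.17 for high against low, and Acot1 from -0.15 to 0.0031 for high against low. The cause was not tested.

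With the replicate number as a block, 0 members passed between levels and Acot3, high against low, was 0.93 (limma adjusted p = 0.257).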
